A study of Homo sapiens with 6 samples.

Results

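To describe the DNA replication program of melanoma cells, RNA sequencing was applied to A375, an established human melanoma cell line that the labels give as wild type. Cells were cultured for 6 h with 0.01% olive oil (OLO, 3 libraries) or 0.01% ozonated olive oil (OZO, olive oil reacted with ozone, 3 libraries), and the labels describe no further allele or agent. A set of 49 DNA replication and S-phase genes was taken by symbol from the 28395 genes of the deposited table, and all 49 were found once each. The measurement used is the authors' mean log2 CPM over all 6 libraries, where CPM is a count scaled to a library of 1000000 counts. Single libraries were not analysed and the columns of the authors' own comparison were not used. Each level below therefore pools OLO and OZO, no difference between them is given, and the spread between libraries is unknown.

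DNA replication starts with licensing, in which the origin recognition complex, CDC6 and CDT1 load the MCM2-7 helicase onto DNA in G1. In S phase, CDC45 and the GINS complex join MCM2-7 to form the active helicase. Primase and polymerase alpha start the new strands, and polymerases delta and epsilon extend them on the PCNA clamp. Many of these genes are transcribed in late G1 and S phase under E2F transcription factors, and proliferating tumour cells generally express them.

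Their promoters were therefore searched for E2F matches first. Windows of 300 bases, from 250 before to 50 after each annotated start site, came from RefSeq on GRCh38.p14, the assembly that hg38 names. They were matched by gene number for 42 of the 49 genes, without MCM4, MCM5, GINS4, POLD3, RPA2, RPA3 and E2F8. An E2F match was any of 6 spellings on either strand, namely TTTGGCGC, TTTCCCGC, TTTCGCGC, TTTGCCGC, TTTGGCGG and TTTCCCGG. Matches on opposite strands may overlap and were counted separately. These windows are shown with E2F matches in capitals. MCM6 had the most matches, with 4 in 2 overlapping pairs. E2F1 carried matches in its own promoter, PCNA had the highest level among genes with a match, and E2F2 had the lowest level of all. Each is written 5′ to 3′ on the strand of its gene, which for these 4 genes is the minus strand.

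MCM6, chr2:135876394-135876693: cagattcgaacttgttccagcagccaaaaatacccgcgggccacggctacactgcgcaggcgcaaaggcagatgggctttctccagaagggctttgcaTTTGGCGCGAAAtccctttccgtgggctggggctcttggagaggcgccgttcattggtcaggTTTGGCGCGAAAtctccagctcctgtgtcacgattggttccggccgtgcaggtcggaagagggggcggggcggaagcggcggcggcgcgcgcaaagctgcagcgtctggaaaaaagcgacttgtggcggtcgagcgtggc
E2F1, chr20:33686336-33686635: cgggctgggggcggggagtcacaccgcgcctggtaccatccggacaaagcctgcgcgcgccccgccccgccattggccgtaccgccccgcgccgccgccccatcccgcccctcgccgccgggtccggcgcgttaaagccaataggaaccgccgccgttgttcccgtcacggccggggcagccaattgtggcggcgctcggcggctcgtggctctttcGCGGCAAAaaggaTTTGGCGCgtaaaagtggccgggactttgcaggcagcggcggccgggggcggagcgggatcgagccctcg
PCNA, chr20:5126573-5126872: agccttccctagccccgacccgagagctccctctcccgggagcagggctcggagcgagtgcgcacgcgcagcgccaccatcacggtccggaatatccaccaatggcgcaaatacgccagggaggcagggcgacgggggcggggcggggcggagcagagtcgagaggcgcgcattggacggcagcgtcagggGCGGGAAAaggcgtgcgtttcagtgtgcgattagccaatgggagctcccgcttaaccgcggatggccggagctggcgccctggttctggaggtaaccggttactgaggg
E2F2, chr1:23531184-23531483: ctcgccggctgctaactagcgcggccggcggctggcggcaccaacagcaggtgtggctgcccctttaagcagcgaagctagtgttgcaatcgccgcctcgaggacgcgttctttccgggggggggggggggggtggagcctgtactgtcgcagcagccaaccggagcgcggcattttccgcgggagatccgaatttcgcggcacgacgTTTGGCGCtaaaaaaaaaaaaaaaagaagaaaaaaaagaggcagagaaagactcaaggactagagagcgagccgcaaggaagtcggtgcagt

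In MCM6 the 2 gene-strand matches began 152 and 90 bases before the start site, and each was followed after 4 bases by the beginning of an opposite-strand match. In E2F1 the matches began 33 and 20 bases before the start, in PCNA 59 bases before and in E2F2 42 bases before. RRM2, the gene with the highest level, had no E2F match in either of its 2 windows. Its window at the later start is shown with the CCAAT box, the letters bound by NF-Y, in capitals.

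RRM2, chr2:10122489-10122788, plus strand: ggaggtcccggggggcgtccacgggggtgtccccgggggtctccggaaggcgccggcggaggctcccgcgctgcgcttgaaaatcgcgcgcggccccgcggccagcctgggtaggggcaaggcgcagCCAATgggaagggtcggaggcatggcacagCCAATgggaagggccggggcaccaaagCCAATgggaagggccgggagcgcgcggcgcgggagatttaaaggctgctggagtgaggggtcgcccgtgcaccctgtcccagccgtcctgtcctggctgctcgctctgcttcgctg

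Of the 42 replication genes with a window, 25 held an E2F match, or 59.5% (95% exact Clopper-Pearson interval 43.3% to 74.4%). The same spellings were found in 10.8% of 10287 protein-coding genes averaging 10 reads or more and in 6.42% of all 27305 genes with a window. At least 2 matches were present in 9 replication genes (21.4%), against 0.690% of those protein-coding genes. The most frequent spelling was TTTCCCGC, with 10 genes (23.8%), followed by TTTGGCGC with 9 (21.4%). TTTCCCGC was also the most frequent in those protein-coding genes, at 3.28%, and TTTGGCGC was found in 1.39% of them. These shares are descriptions without a test, since the genes were chosen as replication genes. The interval treats the 42 genes as independent random draws, which a chosen list is not, so it compares nothing with the other shares. A gene with several windows counts as matched if any of them holds the letters, and 33 of the 42 had a single window (78.6%, against 70.2% of the 10287). The median GC content of the windows was 66.3% in replication genes and 64.7% in the 10287.

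Most of the 25 genes with a match had one near the start site. A match fell wholly within the last 100 bases of the window in 18 of the 42 genes (42.9%), against 3.75% of the 10287. In MCM2, MCM10, GINS1 and CDC6 a match began after the start, at bases 2 to 7 counted from 0 at the start site. The matches of MCM6, GMNN, LIG1, POLA1 and RFC1 all began at least 80 bases before it.

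**Figure D1:**
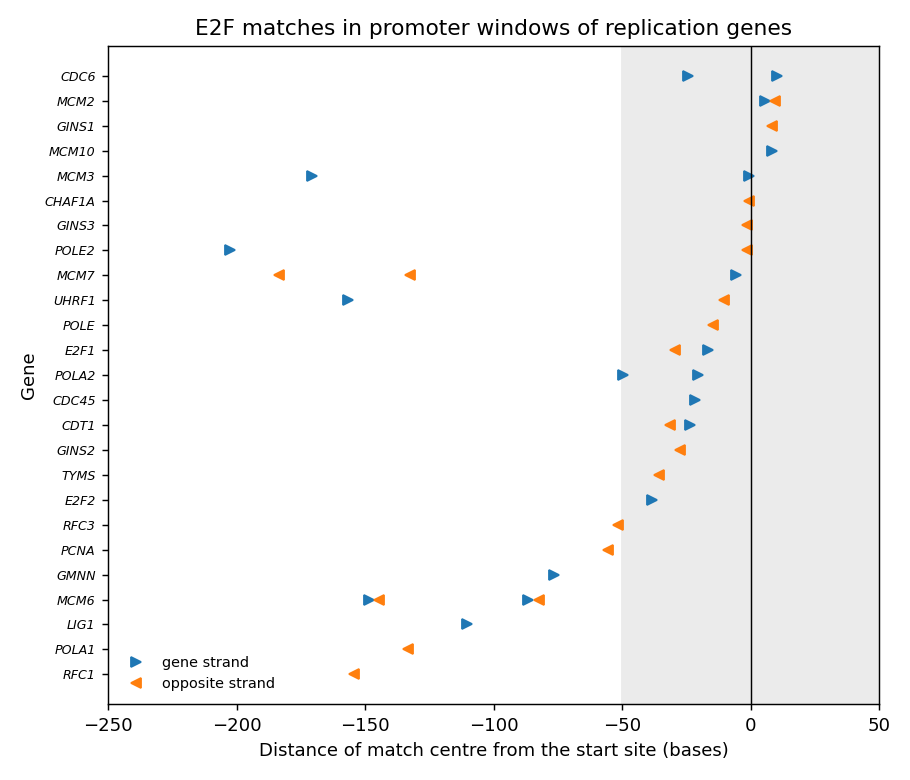
E2F matches in the promoter windows of the 25 replication genes that hold one, plotted by the distance of the centre of the match from the start site in bases, for each gene on the vertical axis. Triangles point right for matches on the strand of the gene and left for the opposite strand, genes with several windows are drawn relative to each start, and the grey band is the 100 bases nearest the start, where 18 genes have a whole match.

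By role, a match was found in 4 of 4 MCM2-7 genes with a window (MCM2, MCM3, MCM6 and MCM7) and in 5 of 5 helicase activation genes (MCM10, CDC45, GINS1, GINS2 and GINS3). It was found in 3 of 5 licensing genes, 4 of 8 primase and polymerase genes, 3 of 6 clamp and loader genes and 1 of 4 nucleotide supply genes, the last being TYMS. The CCAAT box, searched on both strands, was present in 26 of 42 genes (61.9%), against 43.9% of the 10287. The cell cycle homology region (CHR, spelled TTTGAA or TTCGAA, either strand), a promoter element of genes expressed in G2 and mitosis, was present in MCM6 and RRM1 only (4.76%), against 15.9%. No match says only that these letters are not in this window.

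**Figure D2:**
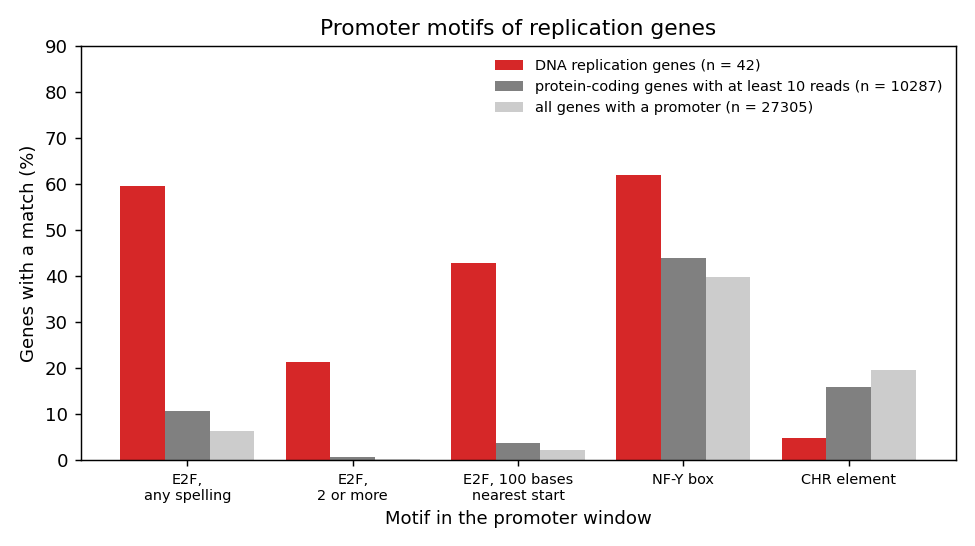
Share of genes, in percent, whose promoter window holds each motif, for the 42 replication genes with a window (red), 10287 protein-coding genes averaging 10 reads or more (dark grey) and all 27305 genes with a window (light grey). E2F matches were found in 59.5%, 10.8% and 6.42% of them, and the NF-Y box is the CCAAT box.

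The depth behind the levels was read from the genes with few reads. The lowest mean, shared by 7012 genes without a read, gives 18409902 counted reads as the geometric mean of the library sizes, scaled as the authors did, and the depth of each library is unknown. Among all genes, 13773 averaged 10 reads or more per library, and 13313 of these could be given a transcript length. As a check of the label, the melanoma regulators SOX10 and MITF had 919 and 499 reads per library and AXL, a receptor of dedifferentiated melanoma, had 4915. Lower were SOX9 with 85.0 and S100B with 51.0. The pigment genes were low, with 36.6 reads for MLANA, 5.75 for PMEL, 4.74 for DCT and none for TYR. The leukocyte markers PTPRC, CD3E and ITGAM had at most 1.07 reads, and of 3 endothelial markers PECAM1 alone exceeded 1, with 19.5. Of 4 keratinocyte markers, KRT10 had 469 reads, KRT14 77.5, KRT5 1.56 and KRT1 none, and of 4 fibroblast markers, LUM had 87.6, COL1A1 22.3, DCN 5.12 and COL1A2 under 1. The part of such RNA in the levels below was not tested.

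All 49 replication genes were well read, from a mean of 140 reads per library for E2F2 to 21971 for RRM2. To compare genes, each mean was converted to CPM and divided by the length of the canonical transcript of GENCODE 44, which gives CPM per kb. The median of the 49 was 32.2 CPM per kb, with quartiles of 14.9 and 49.4. Over the 13313 read genes with a length the median was 7.39 and the quartiles were 1.91 and 20.9, so the median replication gene was 4.36-fold above the median read gene. In all, 46 of the 49 lay above that median, and the other 3 were CHAF1B, E2F8 and E2F2. The top 10% of read genes held 11 of the 49. Together the 49 genes took 0.640% of the counts on this scale, and RRM2 alone took 18.7% of that part. In bulk RNA, more cells in S phase and more RNA per cell cannot be told apart.

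**Figure D3:**
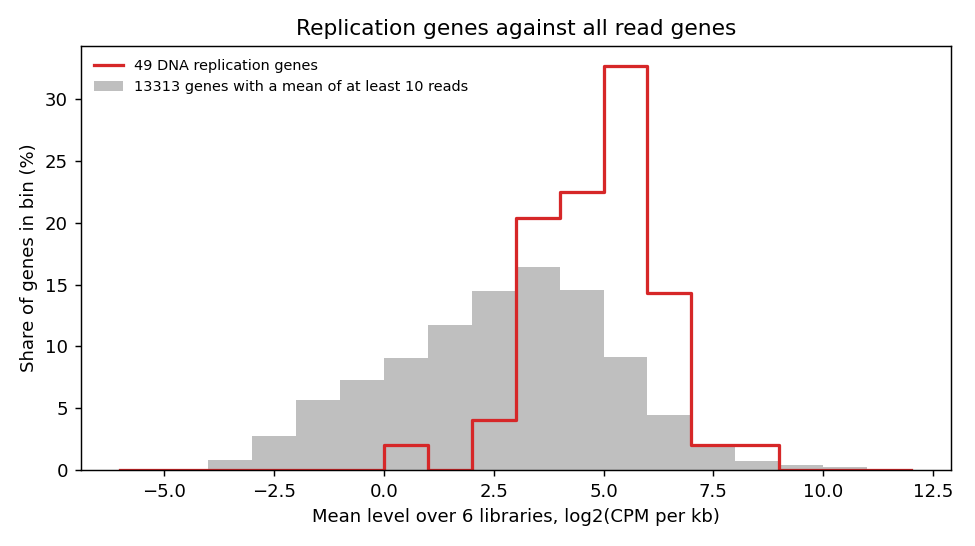
Distribution of mean levels over the 6 libraries, as log2(CPM per kb), for the 49 replication genes (red line) and the 13313 genes with a length and an average of 10 reads or more (grey bars), each as the share of its genes in bins of 1 log2 unit. The replication genes peak between 5 and 6, with 32.7% of them there against 9.12% of the read genes.

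Counting error was small beside the whole range of the 49 levels. The 95% Poisson interval of a level, taken from the mean reads over 6 libraries, reached 0.540% to 6.84% on either side, and it covers counting error only. In the order of the 49 levels, the intervals of 24 of the 48 neighbouring pairs overlapped, and 34 pairs differed by less than 1.1-fold. Many near neighbours are therefore not resolved even by counting error. At the ends of the order, RRM2 was 1.58-fold above PCNA, PCNA 1.82-fold above MCM7, and E2F8 3.21-fold above E2F2. The first of these turned round with all exons as length, where PCNA had 211 CPM per kb and RRM2 130.

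**Figure D4:**
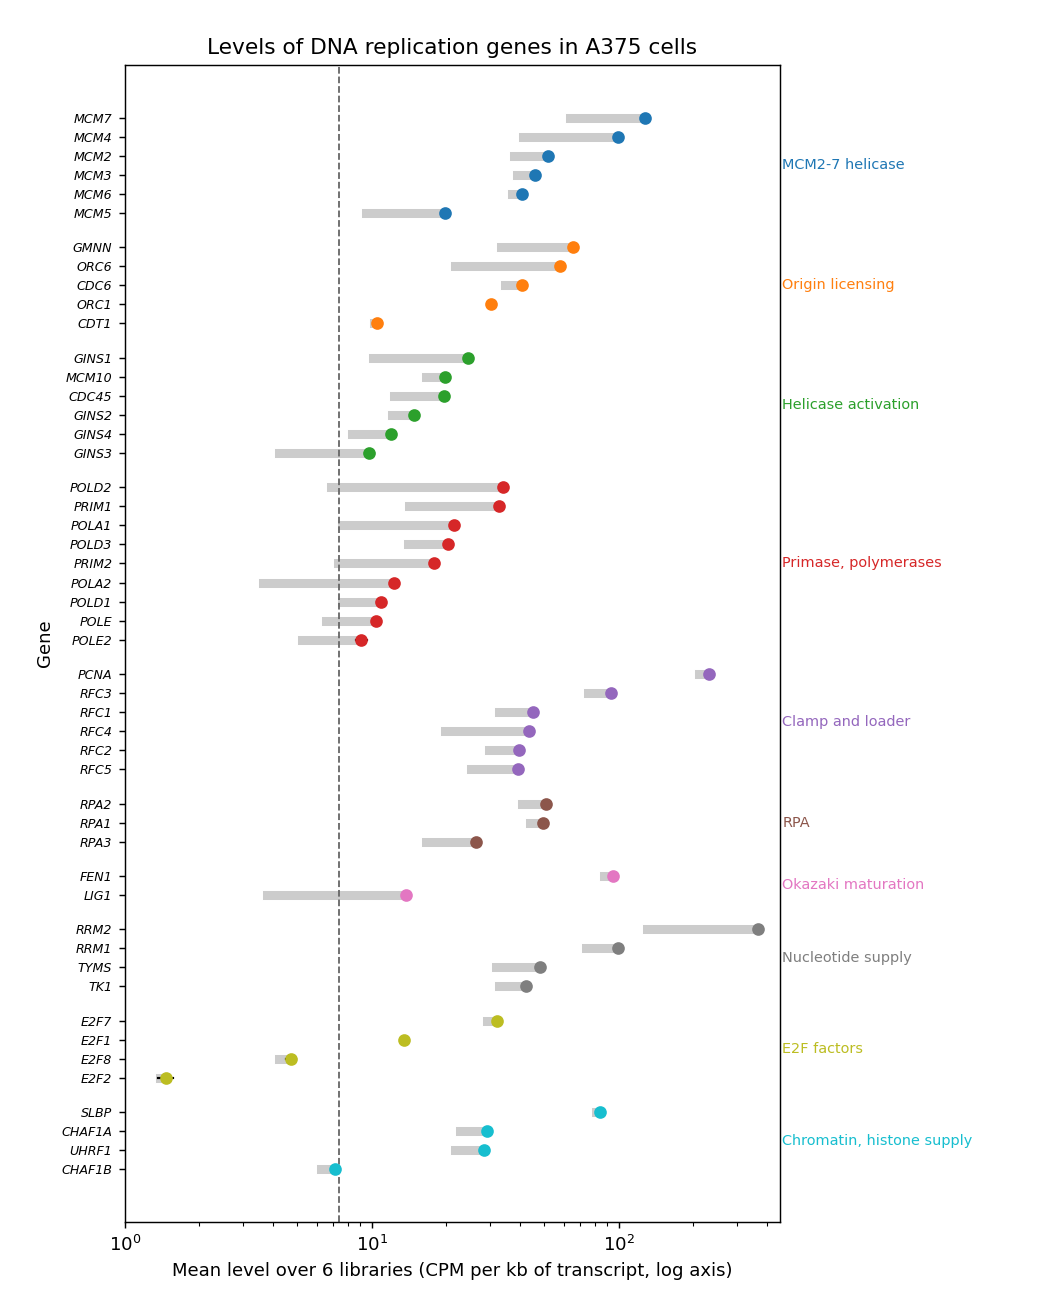
Mean level of each of the 49 replication genes over the 6 libraries, in CPM per kb on a log axis, grouped by role. Points use the canonical transcript length, black bars are 95% Poisson intervals, mostly hidden by the points, grey bars span the levels with the longest transcript or all exons as length, and the dashed line is the median of 13313 read genes, 7.39 CPM per kb.

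The MCM2-7 helicase unwinds DNA as a ring with a single copy of each subunit. MCM7 (chromosome 7, 100092233 to 100101940) had the highest level of the 6, 127 CPM per kb, and MCM4 followed with 99.1. MCM4 depended on the gene model, with 40.8 by all exons, near MCM3 at 38.7 and MCM2 at 37.8, and before division by length its 402 CPM exceeded the 314 CPM of MCM7. With canonical lengths MCM2, MCM3 and MCM6 lay together at 51.9, 46.0 and 40.6. MCM5 (chromosome 22, 35400134 to 35425431) was the lowest at 19.9, so the transcripts of this ring spanned 6.41-fold. The span was 6.82-fold with the longest transcript of each gene and 6.70-fold with the union of its exons, and MCM7 and MCM5 stood at the ends in all 3. Reads over 23.6% of the MCM2 exons could also come from an overlapping lncRNA gene on the opposite strand, and over 7.90% of the MCM7 exons from AP4M1, since the use of strand in counting is not stated.

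Among the licensing genes, GMNN, which encodes the CDT1 inhibitor geminin, had the highest level at 65.5 CPM per kb, and CDT1, which its product inhibits, had the lowest at 10.5. ORC6 and ORC1, subunits of the origin recognition complex, had 57.8 and 30.4, and the helicase loader CDC6 had 40.5. The order at the top depended on the length. With all exons CDC6 was the highest at 34.8 CPM per kb, followed by GMNN at 33.4, ORC1 at 30.4, ORC6 at 21.7 and CDT1 at 10.2, and before division by length CDC6 had 185 CPM and GMNN 82.7.

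The 6 genes of the set whose products turn the loaded helicase into an active one had lower levels than most MCM2-7 subunits. CDC45 had 19.6 CPM per kb and MCM10, an activation factor that is not part of the ring, had 19.8. The 4 GINS subunits ranged from 9.78 for GINS3 to 24.5 for GINS1, a 2.50-fold span, with GINS2 at 14.9 and GINS4 at 11.99. With all exons as length GINS1 fell to 10.1 and GINS2 was the highest at 12.1. The median of the 6 activation genes was 17.2, against 48.9 for MCM2-7, and of the MCM2-7 genes MCM5 alone lay in their range. Other genes of this step, outside the 49, did not all have low levels. TOPBP1 had 49.96 and DBF4 35.1, whereas MTBP had 16.4, TICRR 8.97, CDC7 8.89 and RECQL4 4.35.

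The primase and polymerase genes had a median of 17.9 CPM per kb over 9 genes, and of 7.28 with all exons as length. Primase and polymerase alpha start each new strand, and their genes ranged 2.66-fold, with PRIM1 at 32.8, POLA1 at 21.4, PRIM2 at 17.9 and POLA2 at 12.3. The lagging-strand polymerase delta was represented by POLD2 at 33.9, POLD3 at 20.3 and its catalytic subunit POLD1 at 10.9. The leading-strand polymerase epsilon had 10.4 for its catalytic subunit POLE and 9.08 for POLE2. Before division by length, POLE had 5.27-fold the CPM of POLE2, and per length 1.14-fold, because the POLE transcript is 7823 bases long and that of POLE2 1692. POLD2 depended most on the gene model, with 14.6 CPM per kb by its longest transcript and 6.82 by all exons.

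PCNA (chromosome 20, 5114953 to 5126626), the sliding clamp that holds polymerases on DNA, had the second highest level, 232 CPM per kb. The clamp loader RFC1-5 had RFC3 at 93.1, RFC1 at 44.9, RFC4 at 43.4, RFC2 at 39.3 and RFC5 at 39.1, and the counting intervals of the last 2 overlapped. RPA, the trimer that coats single-stranded DNA, had RPA2 at 50.7, RPA1 at 49.4 and RPA3 at 26.5. It was the most even complex among those with 3 or more subunits in the set, counting only those subunits. The loader spanned 2.38-fold and RPA 1.92-fold. With all exons as length the loader spanned 3.80-fold with RFC4 the lowest and RPA 2.64-fold. Polymerase delta, without its subunit POLD4, then spanned 2.05-fold, so RPA was not the most even by the subunits in the set. Of the enzymes that process Okazaki fragments, the flap nuclease FEN1 had 94.7 and the ligase LIG1 had 13.7, or 3.78 with all exons as length.

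The nucleotide supply genes had the highest median of the roles, 73.5 CPM per kb over 4 genes, and 53.2 with all exons as length. Before division by length the MCM2-7 genes had the higher median log2 CPM, 7.36 against 7.28. RRM2 (chromosome 2, 10120698 to 10211725) had the highest level at 366 and RRM1 had 99.1, a 3.70-fold difference between the subunits of ribonucleotide reductase, which makes deoxynucleotides. That difference was 1.77-fold with all exons as length, where RRM1 had 73.5. TYMS and TK1, which supply thymidine nucleotides, had 48.0 and 42.3. TYMS shares 39.9% of its exon length with ENOSF1 on the opposite strand. Its count is uncertain, since the use of strand in counting is not stated.

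The 4 E2F genes of the set spanned more than any complex, 22.0-fold. E2F7, an atypical E2F that represses targets, had the highest level at 32.2 CPM per kb, and the related E2F8 had 4.70. The activators E2F1 and E2F2 had 13.6 and 1.46. E2F2 (chromosome 1, 23506438 to 23531233) exceeded 21.6% of read genes per length, and E2F7 83.1%. Among the chromatin genes, SLBP, which binds the stem-loop of histone mRNA, had 83.9 and UHRF1, which helps copy DNA methylation, had 28.6. The histone chaperone CAF-1 had 29.3 for CHAF1A and 7.13 for CHAF1B, a 4.11-fold difference.

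Levels of genes with and without an E2F match overlapped. The 25 genes with a match ranged from 1.46 to 232 CPM per kb with a median of 24.5, and the 17 without one ranged from 7.13 to 366 with a median of 39.3. RRM2, RRM1, FEN1 and SLBP were among the genes without a match, and so were CHAF1B at 7.13, POLD1 at 10.9 and PRIM2 at 17.9.

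A second list of 54 replication, nucleotide and E2F pathway genes was described for comparison. It was chosen from the same pathways, so it is not an independent background. All 54 had at least 10 reads, their median was 21.1 CPM per kb and 48 lay above the median read gene. The highest were the histone chaperone NASP at 144 and TFDP1, the DNA-binding partner of E2F proteins, at 138. The lowest were E2F5 at 2.73 and MCM9, a helicase relative of MCM2-7, at 3.04.

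Some counts are uncertain by position or by copies. The exons of 22 of the 49 genes overlap those of another GENCODE gene, on the opposite strand for 18 and on the same strand for 7. By overlapping gene, the shares ran from 0.169% of the exon length for E2F8 to 39.9% for TYMS, both on the opposite strand. GINS4 had 21.0% on the opposite strand, and POLA2 had the highest share on the same strand, 16.8%. How many of all genes have such an overlap was not computed. Annotated pseudogenes named after the gene exist for 10, with 3 each for PCNA, RPA2 and RRM2. How reads were shared among such copies is not given in the sources used here.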

How the data were processed

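RNA was measured in 6 A375 libraries, 3 OLO and 3 OZO by their titles. According to the study's methods and the submitters' processing notes, the authors aligned reads to hg38 with HISAT2 2.1.0, counted them per gene with featureCounts 2.1.1 and fitted limma-voom 3.58.1. The deposited log2 values used here are the authors' means of log2 CPM across the 6 libraries, where each count had 0.5 added by voom. The study's methods name a directional library kit, so the reads carry their strand. The filter, normalization factors and use of strand in counting are not given in the sources used here. The table's other 5 measured columns hold the authors' comparison of OZO with OLO (fold change, moderated t, p-value, adjusted p-value and log odds) and were not used. The planned test between the groups was therefore not run.

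The mean reads of a gene were recovered from its distance to the lowest value. Of the 4816 genes with the lowest products of odd counts, 100% fell on an odd whole number within 0.01, and the procedure was tested on simulated data. The mean is geometric and so cannot exceed the arithmetic one. Lengths came from GENCODE 44, matched by Ensembl identifier for 25497 genes. Python 3.11.15, pandas 2.3.3 and scipy 1.17.1 were used. The genes, the second list and the motifs were chosen with earlier results of these data known, and every one of the 49 genes is named. A marker gene of another cell type is not reported here.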

Additional observations from a re-analysis of the deposited data

How the results depend on the processing

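No paired analysis was possible because single libraries were not analysed. Leaving out each replicate and the settings meant for the difference between OZO and OLO (other normalization, filter, tool and pseudocount) were likewise not run, and how far 1 library decides a level is unknown. The union of exons was chosen as an alternative after the data were seen.

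The median replication gene was 4.36-fold above the median read gene by canonical length, 4.59-fold by the longest transcript, 4.85-fold by the union of exons and 3.66-fold without division by length. It exceeded 91.2% of all genes with a length, 83.1% of those averaging 10 reads or more and 88.6% of protein-coding genes. Of the single levels, 26 of 49 stayed within their counting interval with the longest transcript. For most of these the canonical transcript is the longest, so their level could not change. Only MCM10, GINS4, RFC1 and RRM1 stayed although their longest transcript differs. With the union of exons 4 levels stayed and 21 fell by more than 1.5-fold, POLD2 most (4.98-fold). The 10 highest genes shared 9 with the longest transcript, 8 with the union and 7 without division by length. The share of promoters with an E2F match was 59.5% over the whole window and 42.9% in the 100 bases nearest the start. By single spelling the share was lower, as fewer letters were searched, and the share of the 10287 protein-coding genes is given in brackets. It was 21.4% for TTTGGCGC (1.39%), 23.8% for TTTCCCGC (3.28%) and 14.3% for TTTCGCGC (1.14%). For TTTGCCGC it was 2.38% (1.09%), for TTTGGCGG 16.7% (1.38%) and for TTTCCCGG 4.76% (3.20%). The low genes with the fewest reads, with 100% on an odd whole number, are part of those already counted. Their share is therefore no separate check.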
